A study of Mus musculus with 4 samples.

Results

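The Hippo kinase cassette and its adaptors, a set of 10 genes named Stk3, Stk4, Sav1, Lats1, Lats2, Mob1a, Mob1b, Nf2, Vgll4 and Taok3, was followed through the cell types of mouse bone marrow. The members were chosen by gene symbol; they are 10 of the 32544 genes counted, and all 10 were detected in every library. Nucleated bone marrow cells of 10-week-old mice, sorted by flow cytometry, had been profiled by droplet single-cell RNA sequencing that tags the 3' end of each transcript. Each genotype, YAP1 heterozygote and WT, gave 2 libraries, numbered replicate 1 and replicate 2. The labels name neither the kind of Yap1 allele nor a Cre driver, strain or sort gate, and they do not say what a replicate is. Sex-linked transcripts, given with the library sizes, differ within each group, so its 2 libraries come from different animals, of different sex. The spread behind the p-values holds differences between animals, between sexes and between library preparations, which cannot be told apart. A count at the 3' end cannot tell Yap1 alleles apart.

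The Hippo pathway is a kinase relay. Upstream proteins such as merlin (Nf2) and the TAO kinases (Taok3 is one) switch on the Hippo kinases MST1 and MST2, made from Stk4 and Stk3, with Sav1 as their scaffold. These kinases activate LATS1 and LATS2 together with the MOB1 proteins (Mob1a, Mob1b), and the LATS kinases phosphorylate the coactivators YAP and TAZ (Yap1, Wwtr1), which keeps them out of the nucleus and away from the TEAD transcription factors. Vgll4 competes with YAP for the TEADs. In blood cells the cassette is best known for work apart from YAP: loss of Stk4 impairs survival and trafficking of lymphocytes, and MOB1 proteins also bind the NDR kinases, relatives of LATS.

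Promoter windows are shown for both MOB1 genes and both LATS genes, because the balance within these pairs of paralogs differed between cell types in the counts below. Sequences are from RefSeq (GRCm38.p6), from 250 bases before to 50 bases after the annotated start, and read 5′ to 3′ on the strand of the gene. Mob1a lies at chr6:83325789-83326088, plus strand; Mob1b at chr5:88720621-88720920, plus strand; Lats1 at chr10:7680959-7681258, plus strand; the Lats2 window with the higher GC content, of 2 listed, at chr14:57746074-57746373, minus strand.
Mob1a: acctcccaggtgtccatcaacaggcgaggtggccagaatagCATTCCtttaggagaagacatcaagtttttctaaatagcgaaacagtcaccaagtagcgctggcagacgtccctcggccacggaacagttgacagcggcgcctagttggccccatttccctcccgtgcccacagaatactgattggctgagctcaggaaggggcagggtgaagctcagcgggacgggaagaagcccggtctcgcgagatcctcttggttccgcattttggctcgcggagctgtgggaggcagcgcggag
Mob1b: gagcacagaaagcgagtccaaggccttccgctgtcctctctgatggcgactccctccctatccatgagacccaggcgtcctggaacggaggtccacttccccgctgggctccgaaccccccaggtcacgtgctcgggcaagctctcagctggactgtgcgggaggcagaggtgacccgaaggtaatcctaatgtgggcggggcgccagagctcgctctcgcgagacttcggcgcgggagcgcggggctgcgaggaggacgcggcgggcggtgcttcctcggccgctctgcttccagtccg
Lats1: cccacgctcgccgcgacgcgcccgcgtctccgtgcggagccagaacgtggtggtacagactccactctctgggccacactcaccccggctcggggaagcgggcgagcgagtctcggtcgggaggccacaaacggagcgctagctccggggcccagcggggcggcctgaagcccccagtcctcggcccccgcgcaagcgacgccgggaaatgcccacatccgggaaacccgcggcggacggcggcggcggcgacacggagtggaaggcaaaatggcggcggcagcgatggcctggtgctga
Lats2: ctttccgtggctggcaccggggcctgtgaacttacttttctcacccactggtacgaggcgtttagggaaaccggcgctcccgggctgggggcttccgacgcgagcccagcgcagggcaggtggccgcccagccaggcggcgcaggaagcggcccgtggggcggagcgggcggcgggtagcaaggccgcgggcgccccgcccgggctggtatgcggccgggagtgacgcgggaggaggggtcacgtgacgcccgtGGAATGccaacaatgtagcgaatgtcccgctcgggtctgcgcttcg
Capitals mark the TEAD motif, searched as GGAATG on both strands. It was present at 1 place in the Mob1a window and at 1 place in the Lats2 window, and these letters are in neither the Mob1b nor the Lats1 window. Of all 32851 promoter windows of this length, 14.7% hold it. An ETS core (CCGGAA, 14.9% of windows) and a GATA motif (AGATAA, 11.2%) were searched as well, and neither is in any of the 4 windows printed. Their GC content was 58.3% for Mob1a, 67.7% for Mob1b, 73.0% for Lats1 and 71.7% for Lats2. Windows were listed for 9 of the 10 members, 11 in all, and those of Sav1 and Vgll4 also hold the TEAD motif at 1 place each. The Stk4 window, not printed here, holds the ETS core at 1 place.

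The deposited libraries held between 112806900 and 119855112 UMIs (unique molecular identifiers, each standing for 1 tagged transcript). After removal of low-quality barcodes and called doublets 47581 cells were kept: 10565 and 13231 in the YAP1 heterozygote libraries and 12418 and 11367 in the WT libraries, with median UMI counts of 5518 to 6747. Pairs of libraries shared 27 to 62 cell barcodes (0.238% to 0.511% of the smaller library). Replicate 1 of both genotypes held Ddx3y, a Y-linked gene (67.8 CPM in YAP1 heterozygote, 100.5 CPM in WT), and replicate 2 of both held Xist, transcribed from the inactive X chromosome (864 CPM in YAP1 heterozygote, 885 CPM in WT), so replicate number and sex coincide. Levels are given as CPM, the UMIs of a gene scaled to 1000000 UMIs of the same library and class, and means ± SD over classes are over the 4 libraries. Since each transcript is tagged at its end, levels of different genes do not scale with transcript length, although they depend on the annotated 3' ends.

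Cells fell into 19 classes large enough to compare, each named for the marker list that fitted it and to be read as "-like" cells, and a stromal or endothelial class of 17 cells. The members and the other pathway genes were left out of the genes used for clustering. The class called hematopoietic stem and progenitor cells (HSPC) had Prg2, an eosinophil marker, in the lead beside Cd34, and the conventional dendritic class was led by C1qb, a macrophage marker, beside Cd209a. A cluster of 442 immature neutrophils, led by Cxcl2, Acod1 and Clec4e, came to 96.2% from WT replicate 1. Its name is uncertain: none of its 10 leading genes is on the immature or the mature neutrophil list, and when doublets were kept the cluster led by Cxcl2 and Acod1, with 1241 of its 1367 cells from WT replicate 1, was named mature neutrophil. Classes were compared by their ranges over the 4 libraries, as a description with no test. Class totals matter for CPM: immunoglobulin transcripts took 50.5% to 62.1% of plasma cell UMIs, and 6 of the 10 members were lowest in that class. Macrophages, with 97 and 178 cells in the YAP1 heterozygote libraries and 65 and 50 in the WT libraries, gave scattered values. With totals rescaled by TMM factors over all class sums some classes trade places, most of all neutrophils, which move up; this is stated where it changes the leading classes of a gene.

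The end of the pathway was nearly empty in this marrow. Yap1 gave 0 and 6 UMIs in the YAP1 heterozygote libraries and 6 and 7 UMIs in the WT libraries, in 19 of 47581 cells (0.0399%, exact Clopper-Pearson 95% interval 0.0240% to 0.0624%; such intervals cover counting error only). Megakaryocytes, the source of platelets, had a Yap1 UMI in 5 of 424 cells (1.18%, 0.384% to 2.73%), at a median of 18798 UMIs per cell; of these 5 UMIs 1 was in YAP1 heterozygote and 4 in WT cells. Of B cell precursors 6 of 3930 cells had one, at a median of 3212.5 UMIs, with 1 UMI in YAP1 heterozygote and 5 in WT cells. Of HSPC 3 of 1182 cells had one, all of them WT. B cells had one in 2 of 5583 cells, both YAP1 heterozygote, and plasma cells in 1 of 160 cells, WT. Mature neutrophils had one in 0 of 11745 cells, at a median of 3781 UMIs. Taken as up to 3 counts, that allows a share of up to 0.0255% of cells with a UMI, which is no limit on the cells that express Yap1. Among the 17 stromal or endothelial cells 2, both YAP1 heterozygote, held a Yap1 UMI, the highest share in the class with the fewest cells (11.8%, 1.46% to 36.4%). These shares were not thinned to a common depth.

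The partners of YAP were scarce as well. Wwtr1 (TAZ) gave 47 UMIs in all, 25 of them in mature neutrophils. Of the TEAD factors, Tead2 gave 250 UMIs, Tead3 31, Tead1 17, of which 7 came from the 17 stromal or endothelial cells, and Tead4 1. Tead2 was the only gene among the 9 effectors to pass the filter on low counts over all cells; it had 0.568 and 0.817 CPM in the YAP1 heterozygote libraries, against 0.344 and 0.568 CPM in the WT libraries. The lower YAP1 heterozygote value of Tead2 equalled the higher WT value to 3 significant digits.

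The kinases and adaptors were there. Over all cells the mean level ran from 11.8 CPM for Stk3 to 129 CPM for Mob1a, against 0.0435 CPM for Yap1. Among the 22211 genes detected, Mob1a stood at percentile 95.5, Stk4 (107 CPM) at 94.5, Taok3 (95.5 CPM) at 93.8 and Vgll4 (43.1 CPM) at 86.1, while Stk3 stood at 67.7 and Yap1 at 24.8. Between them lay Mob1b (31.4 CPM), Sav1 (28.0 CPM), Lats2 (27.3 CPM), Lats1 (18.1 CPM) and Nf2 (12.1 CPM). Mob1a had 129 and 124 CPM in the YAP1 heterozygote libraries and 145 and 120.0 CPM in the WT libraries. Stk4 had 108 and 106 CPM in YAP1 heterozygote and 112 and 103 CPM in WT, and Taok3 98.7 and 88.3 CPM in YAP1 heterozygote and 101 and 93.9 CPM in WT. Replicate 1 was the higher library of its group for these 3 genes, and the groups overlapped.

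Most classes kept every step of the relay. A mean of at least 10 CPM was reached in 19 of 19 classes by Stk4, Lats1, Mob1a and Taok3, in 18 by Sav1, Mob1b and Vgll4, in 16 by Lats2, in 15 by Nf2 and in 12 by Stk3. Each of the 10 had UMIs in every class, and of these 19 classes a library count of 0 was found only in macrophages (for Lats2, Nf2 and Vgll4), the class with the lowest median depth (1690 UMIs per cell). In the 17 stromal or endothelial cells, which are not a blood lineage, Sav1 stood at 163 CPM (exact Poisson 95% interval 81.5 to 292) and Tead1 at 104 CPM (41.8 to 214). The heatmap of class levels shows all 10 members beside the effectors, and the plot of levels by library shows how closely the 4 libraries sit.

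**Figure D1:**
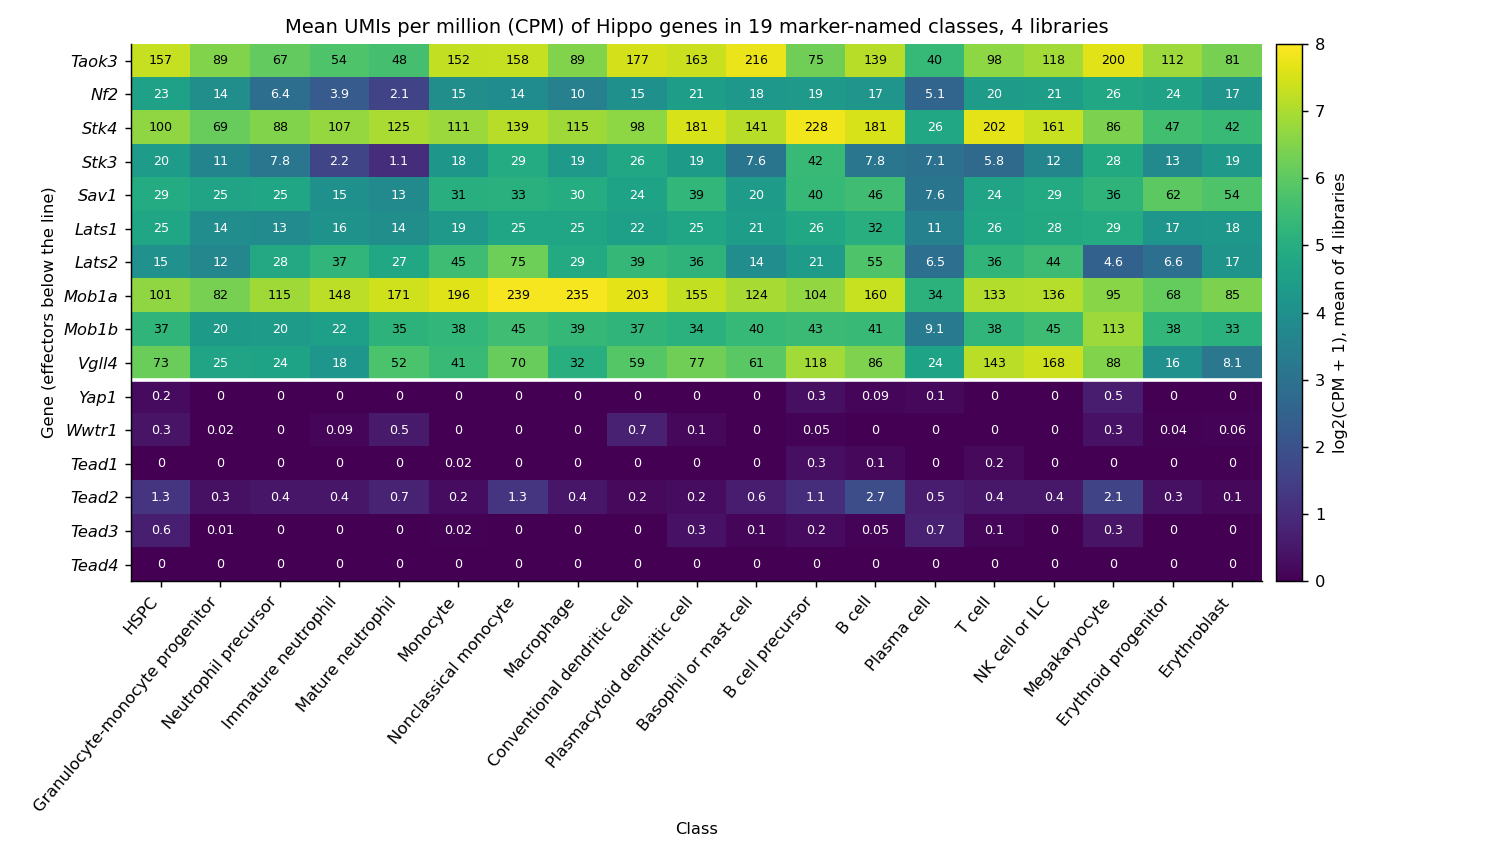
Heatmap of mean levels over the 4 libraries for the 10 members (above the white line) and the effectors Yap1, Wwtr1 and Tead1 to Tead4 (below it); rows are genes, columns the 19 classes, colour is log2(CPM + 1), and each cell prints the mean CPM. The rows of the members are filled while those of the effectors are close to 0, and Mob1b peaks in megakaryocytes, where Lats2 is lowest.

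**Figure D2:**
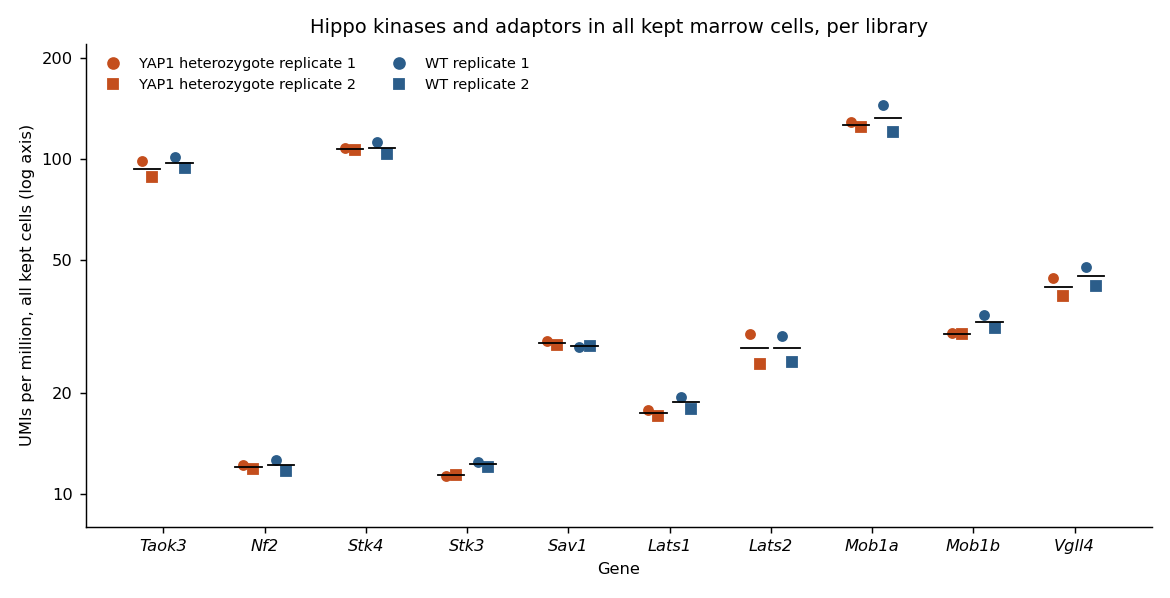
Level of each member in all kept cells of each library, in CPM on a log axis; orange points are YAP1 heterozygote and blue points WT, circles replicate 1 and squares replicate 2, and black bars are the means of 2 libraries. The libraries of both genotypes lie close together for every gene, from 11.8 CPM for Stk3 to 129 CPM for Mob1a.

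Taok3 (ENSMUSG00000061288, chr5:117120129-117275219), an upstream kinase known in mice for its part in marginal zone B cell development, was highest in basophils or mast cells and in megakaryocytes. Basophils or mast cells held 223 and 197 CPM in the YAP1 heterozygote libraries and 220.2 and 226 CPM in the WT libraries, and megakaryocytes 189.8 and 198 CPM in YAP1 heterozygote and 202 and 209 CPM in WT. These classes overlapped in range and had the highest means (216 ± 13.2 and 199.7 ± 8.21 CPM). Conventional dendritic cells (177 ± 32.7 CPM) overlapped both. Neutrophils were at the other end on plain totals. Mature neutrophils had 55.2 and 39.3 CPM in YAP1 heterozygote and 61.6 and 37.6 CPM in WT, with a mean above only that of plasma cells (40.3 ± 13.02 CPM). On TMM-scaled totals conventional dendritic cells (155 CPM) stood just above megakaryocytes (149 CPM), and B cell precursors were lowest (57.0 CPM). Neutrophils then lay in the middle of the order, with 111 CPM in immature and 92.3 CPM in mature neutrophils. The end of the Taok3 transcript shares 50-base runs with Spata6, which itself had 7.20 CPM over all cells, so the split of reads between them is uncertain.

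Nf2 (ENSMUSG00000009073, chr11:4765845-4849536) encodes merlin, the membrane-linked scaffold and tumor suppressor upstream of the kinases. It was low everywhere and lowest in neutrophils. Megakaryocytes had 27.8 and 24.7 CPM in the YAP1 heterozygote libraries and 28.1 and 24.7 CPM in the WT libraries. That range overlapped those of erythroid progenitors (23.6 ± 2.22 CPM) and HSPC (22.9 ± 3.23 CPM). It also overlapped those of plasmacytoid dendritic cells (21.3 ± 3.85 CPM), NK cells or innate lymphoid cells (20.9 ± 8.91 CPM) and T cells (20.2 ± 4.55 CPM). Mature neutrophils had 2.42 and 2.02 CPM in YAP1 heterozygote and 2.30 and 1.83 CPM in WT, apart from every other class but macrophages and plasma cells, and immature neutrophils came next (3.89 ± 0.636 CPM). The mean of megakaryocytes was 12.3 times that of mature neutrophils. On TMM-scaled totals erythroid progenitors led, at 20.4 CPM, and mature neutrophils stayed lowest.

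Of the 2 Hippo kinases, Stk4 (ENSMUSG00000018209, chr2:164070322-164155524; MST1) was the abundant one and highest in lymphoid cells. B cell precursors had 233 and 212 CPM in the YAP1 heterozygote libraries and 243 and 225 CPM in the WT libraries. T cells had 191 and 212 CPM in YAP1 heterozygote and 209 and 198 CPM in WT, a range that overlapped that of the precursors at its upper edge. Erythroblasts had 40.4 and 44.4 CPM in YAP1 heterozygote and 40.8 and 41.8 CPM in WT, lower than in every class but plasma cells (26.3 ± 8.66 CPM). On TMM-scaled totals mature neutrophils came first, at 239.9 CPM, and erythroid progenitors last. The antisense neighbour Tomm34 had 28.8 CPM over all cells; whether the counting used strand is not given in the sources used here.

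Stk3 (ENSMUSG00000022329, chr15:34875496-35178921; MST2) had a pattern of its own. B cell precursors had 36.7 and 38.8 CPM in the YAP1 heterozygote libraries and 47.0 and 46.2 CPM in the WT libraries, above all other classes in all 4 libraries. Nonclassical monocytes (29.3 ± 3.05 CPM), megakaryocytes (27.9 ± 2.32 CPM) and conventional dendritic cells (26.4 ± 6.21 CPM) came next and overlapped. T cells were low (5.76 ± 0.921 CPM), and mature neutrophils were lowest and apart from the rest, at 0.727 and 1.47 CPM in YAP1 heterozygote and 0.883 and 1.12 CPM in WT. The highest class held 40.2 times the level of the lowest, the widest span of the 10 members on plain totals.

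Within B cell precursors the kinases were concentrated in the cluster led by Rag1, the gene of the V(D)J recombinase. Its 2326 cells had a Stk3 level of 91.4 ± 14.3 CPM, a Stk4 level of 328 ± 13.4 CPM and a Vgll4 level of 249.8 ± 22.6 CPM. In the cluster led by Vpreb1, Igll1 and Dntt the levels were 22.0 ± 7.70 CPM for Stk3, 166 ± 10.5 CPM for Stk4 and 116 ± 17.3 CPM for Vgll4. A smaller cluster, led by Myl4, Rsph9 and Vpreb3, had 23.0 ± 6.06 CPM of Stk3, 199.5 ± 22.4 CPM of Stk4 and 48.5 ± 5.83 CPM of Vgll4. Median UMI counts per cell were 2569.5 in the Rag1 cluster, 4838 in the Vpreb1 cluster and 8613 in the Myl4 cluster, and the part of depth in these levels was not tested. Library by library, Stk3 in the Rag1 cluster was 89.8 and 80.1 CPM in YAP1 heterozygote and 112 and 83.7 CPM in WT.

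Sav1 (ENSMUSG00000021067, chr12:69965012-69987002), the scaffold that joins the Hippo kinases to their substrates, was highest in the red cell lineage. Erythroid progenitors had 68.3 and 66.0 CPM in the YAP1 heterozygote libraries and 59.5 and 54.6 CPM in the WT libraries, and erythroblasts 56.2 and 49.99 CPM in YAP1 heterozygote and 60.6 and 51.0 CPM in WT. The 2 classes overlapped, and hemoglobin transcripts took 7.04% to 11.99% of erythroblast UMIs. B cells (45.6 ± 6.81 CPM) came next and overlapped erythroblasts but not erythroid progenitors. Mature neutrophils had 13.3 ± 1.07 CPM and plasma cells 7.59 ± 2.24 CPM. On TMM-scaled totals erythroblasts led, at 55.9 CPM. Within B cells the cluster led by Ms4a1 had 67.7 ± 13.1 CPM and the one led by Ighd 35.4 ± 5.998 CPM. The mean of the Ms4a1 cluster was above that of the erythroid progenitor class (62.1 ± 6.26 CPM). The antisense gene Atl1 overlaps Sav1 and had 1.68 CPM.

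The LATS kinases, which phosphorylate YAP and TAZ, were both present and were distributed differently. Lats1 (ENSMUSG00000040021, chr10:7681214-7716460) was the most even member on plain totals. Leaving out plasma cells, its highest class, B cells, had 2.36 times the level of its lowest, neutrophil precursors. B cells had 29.7 and 31.7 CPM in the YAP1 heterozygote libraries and 35.1 and 30.5 CPM in the WT libraries. Megakaryocytes had 29.1 and 30.2 CPM in YAP1 heterozygote and 29.9 and 28.8 CPM in WT, and neighbouring classes in the order overlapped all the way down. On TMM-scaled totals immature neutrophils led, at 32.1 CPM.

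Lats2 (ENSMUSG00000021959, chr14:57689662-57758388) ran from nonclassical monocytes and B cells down to megakaryocytes on plain totals. Nonclassical monocytes had 96.4 and 57.0 CPM in the YAP1 heterozygote libraries and 88.6 and 56.5 CPM in the WT libraries, and B cells 59.1 and 52.3 CPM in YAP1 heterozygote and 55.1 and 53.3 CPM in WT. Their ranges overlapped and B cells stood clear of the class after them, monocytes (45.1 ± 6.97 CPM). Megakaryocytes were lowest, with 4.43 and 4.11 CPM in YAP1 heterozygote and 5.43 and 4.42 CPM in WT, overlapping plasma cells, erythroid progenitors and macrophages. Nonclassical monocytes had 16.2 times the level of megakaryocytes. Megakaryocytes stayed lowest on TMM-scaled totals, where immature neutrophils led at 75.5 CPM. The end of the Lats2 transcript shares 50-base runs with Gm49361, an overlapping gene on the same strand that had 0 UMIs. Whether reads fitting both genes were left out of the counts was not tested. The class of NK cells or innate lymphoid cells held a split: its NK cluster had 48.0 ± 8.69 CPM. Its other cluster, led by Gata3 and Rora, had only 60 cells, 10 and 10 in the YAP1 heterozygote libraries and 18 and 22 in the WT libraries. It had no Lats2 UMI in either YAP1 heterozygote library and 15.8 and 12.5 CPM in the WT libraries. A count of 0 allows up to 3 counts, so with so few cells no genotype difference can be read from these values.

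Mob1a (ENSMUSG00000043131, chr6:83326016-83343776), a MOB1 coactivator of the LATS and NDR kinases, was highest in myeloid cells. Nonclassical monocytes had 262 and 243 CPM in the YAP1 heterozygote libraries and 223 and 227 CPM in the WT libraries. They overlapped macrophages (235 ± 52.0 CPM) and conventional dendritic cells (203 ± 19.7 CPM), and monocytes (196 ± 16.3 CPM) followed. Erythroid progenitors had 65.7 and 70.2 CPM in YAP1 heterozygote and 69.4 and 68.5 CPM in WT, below every class but plasma cells. On TMM-scaled totals mature neutrophils led, at 327 CPM.

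Mob1b (ENSMUSG00000006262, chr5:88720855-88764220), the other MOB1 gene, was highest in megakaryocytes on either scale. The class held 74 and 112 cells in the YAP1 heterozygote libraries and 117 and 121 cells in the WT libraries. They had 94.3 and 115 CPM in the YAP1 heterozygote libraries and 121 and 122 CPM in the WT libraries. The next class, nonclassical monocytes, had 47.2 and 51.0 CPM in YAP1 heterozygote and 44.3 and 38.6 CPM in WT, and no library of any other class reached the megakaryocyte range. From there the order was flat down to erythroblasts (33.4 ± 5.59 CPM), with neutrophil precursors (20.2 ± 1.89 CPM) and granulocyte-monocyte progenitors (19.5 ± 1.39 CPM) lower. On TMM-scaled totals mature neutrophils (66.9 CPM) and immature neutrophils (44.1 CPM) came next after megakaryocytes, above nonclassical monocytes (39.96 CPM). With coarser clusters the megakaryocytes merged with progenitors and the level of the merged class was 65.8 CPM.

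Vgll4 (ENSMUSG00000030315, chr6:114860628-114969994), which competes with YAP for TEAD factors, was highest in NK cells or innate lymphoid cells and in T cells. NK cells or innate lymphoid cells had 154 and 159 CPM in the YAP1 heterozygote libraries and 204 and 157 CPM in the WT libraries, T cells 143 ± 24.9 CPM and B cell precursors 118 ± 10.5 CPM. Neighbours in that order overlapped, and B cell precursors stood clear of the class after them, megakaryocytes (88.2 ± 15.6 CPM). Erythroblasts had 8.57 and 5.79 CPM in YAP1 heterozygote and 11.1 and 6.74 CPM in WT and were apart from every other class but macrophages. On TMM-scaled totals mature neutrophils came next after NK cells or innate lymphoid cells and T cells, at 99.9 CPM, and above B cell precursors (89.6 CPM) and B cells (70.0 CPM). On plain totals the highest class had 20.9 times the level of the lowest. Mature neutrophils were not uniform: Vgll4 stood at 23.8 ± 5.96 CPM in the cluster led by Retnlg and Mmp8 and at 138 ± 44.5 CPM in the cluster led by Il1b and Ptgs2. Those clusters also differed in depth, with median UMI counts of 6169 and 2174 per cell, and the part of depth in the difference was not tested.

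As a share of paralog UMIs, the balance within each pair differed between cell classes. Over all cells Stk4 made up 90.5 and 90.3% of Stk4 and Stk3 UMIs in the YAP1 heterozygote libraries, against 90.0 and 89.6% in the WT libraries. Lats1 made up 37.2 and 41.3% of Lats1 and Lats2 UMIs in YAP1 heterozygote and 39.7 and 42.1% in WT. Mob1a made up 81.0 and 80.5% of Mob1a and Mob1b UMIs in YAP1 heterozygote and 80.9 and 79.4% in WT. The differences between genotypes were 0.611, -1.67 and 0.617 percentage points for Stk4, Lats1 and Mob1a. Over these 3 comparisons the exact two-sided permutation p was 0.33 for Stk4 and 0.67 for Lats1 and for Mob1a (0.67 for each after Benjamini-Hochberg adjustment), where 0.33 is the smallest that 2 libraries against 2 allow. The last 500 bases of the paralogs' transcripts shared no run of 50 bases with each other, so reads of a pair can be told apart. Runs of that length that Lats2 shares with Gm49361 could affect the Lats2 count and so the Lats1 share, which was not tested.

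Megakaryocytes had the lowest mean Mob1a share and the highest mean Lats1 share of the classes. Mob1a made up 49.3 and 45.0% of MOB1 UMIs there in YAP1 heterozygote and 47.3 and 41.0% in WT, the only class in which its share was under 50%. Lats1 made up 86.8 and 88.0% of LATS UMIs in YAP1 heterozygote megakaryocytes and 84.6 and 86.7% in WT megakaryocytes. That range overlapped those of erythroid progenitors (61.4 to 85.4%) and macrophages (33.3 to 100%). The mean Lats1 share was 72.7 ± 10.2% in erythroid progenitors and 25.9 ± 7.49% in nonclassical monocytes, the lowest of the classes. Stk4 held the larger share in all 19 classes, from 69.1 ± 6.83% in erythroblasts to 99.2 ± 0.266% in mature neutrophils. These shares do not depend on the class total, so rescaling leaves them as they are.

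**Figure D3:**
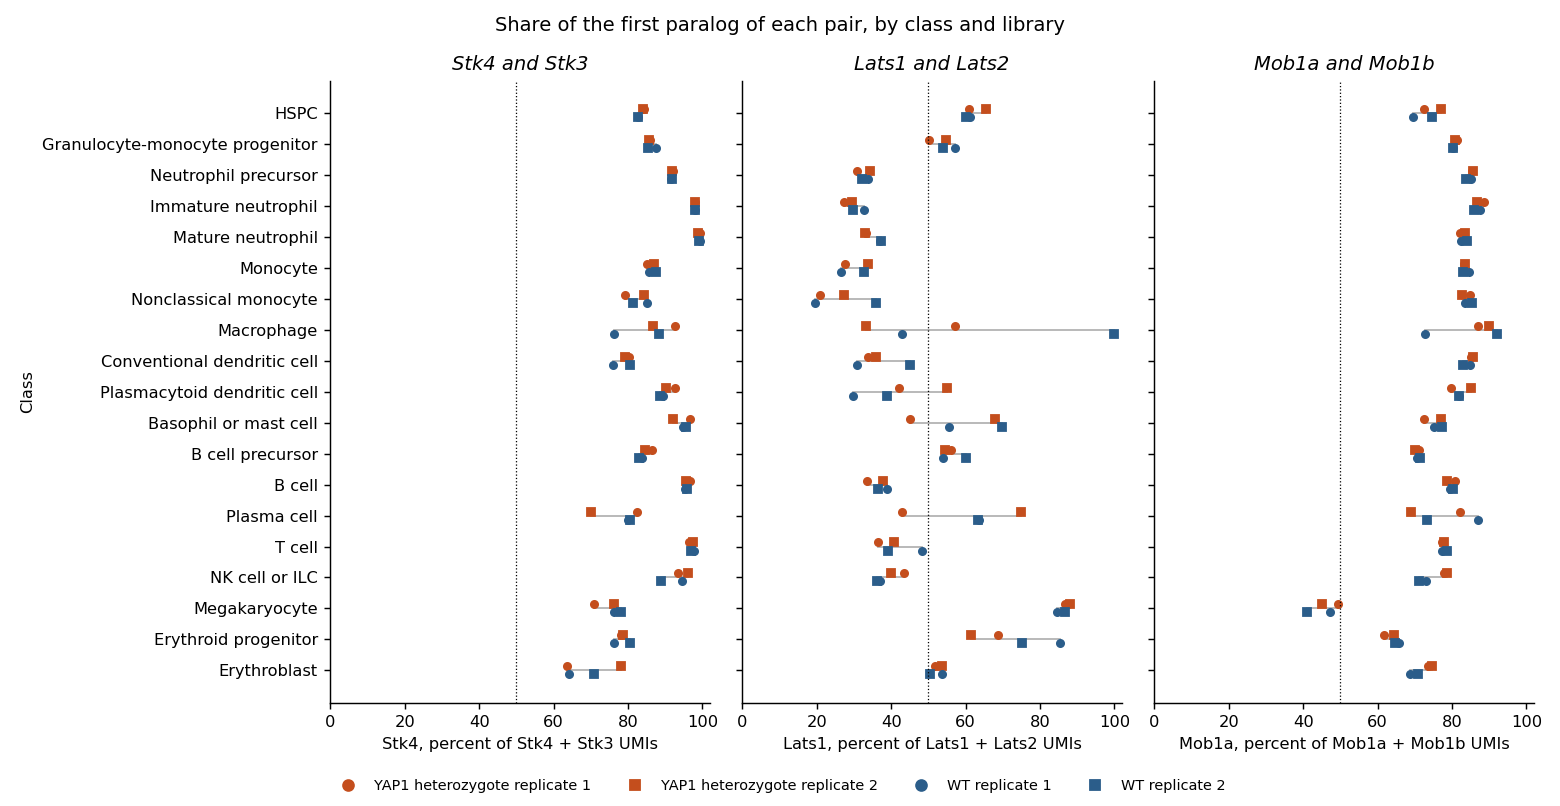
Share of the paralog named first in the UMIs of its pair, in percent, for each class (rows) and library; orange points are YAP1 heterozygote and blue points WT, grey lines span the 4 libraries and the dotted line marks 50%. In megakaryocytes the Mob1a share averages 45.7 ± 3.59% and the Lats1 share 86.5 ± 1.40% (mean ± SD, n = 4).

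Along the neutrophil series the members parted ways. From granulocyte-monocyte progenitors to mature neutrophils the log2 difference (mature minus progenitor, CPM with 1 added, per library) was -2.58 ± 0.20 for Stk3 and -2.29 ± 0.14 for Nf2 (SD, n = 4). On TMM-scaled totals these were -2.05 and -1.63, so both were lower in mature cells on either scale. Mob1a (1.05 ± 0.06), Lats2 (1.10 ± 0.05), Stk4 (0.85 ± 0.10) and Mob1b (0.81 ± 0.10) were higher in mature neutrophils in all 4 libraries, and TMM scaling put them at 1.95, 1.98, 1.75 and 1.69. Sav1 (-0.86 ± 0.13) and Taok3 (-0.89 ± 0.37) were lower on plain totals, but TMM scaling put them at -0.000268 and 0.02, so their direction is not settled. Vgll4 was 1.497 ± 0.26 from immature to mature neutrophils, and 1.46 on the TMM scale. At that last step Lats2 went the other way, with -0.45 ± 0.10, and -0.54 on the TMM scale.

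Other lineages gave other combinations. From HSPC to megakaryocytes Mob1b was higher by 1.60 ± 0.25 and Lats2 differed by -1.55 ± 0.06 on the log2 scale. From HSPC to erythroid progenitors Vgll4 differed by -2.16 ± 0.18, Stk4 by -1.08 ± 0.06 and Sav1 by 1.06 ± 0.15. From B cell precursors to B cells Stk3 differed by -2.30 ± 0.16, Lats2 by 1.37 ± 0.06 and Taok3 by 0.88 ± 0.11. From granulocyte-monocyte progenitors to monocytes Lats2 differed by 1.82 ± 0.15 and Mob1a by 1.25 ± 0.05. Each of these had the same direction in all 4 libraries and on TMM-scaled totals. The classes of a series are groups of cells ordered by known biology, not cells followed over time.

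**Figure D4:**
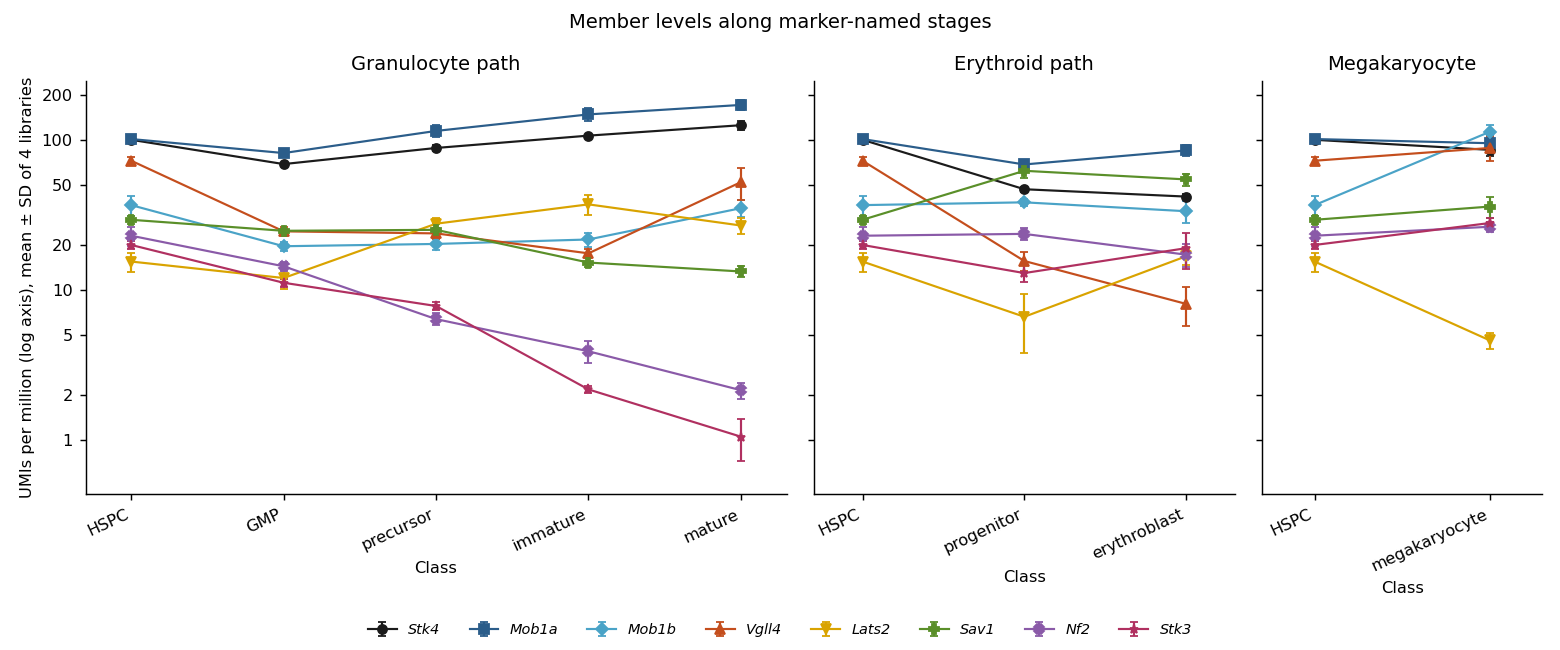
Mean level ± SD of 4 libraries (CPM, log axis) of 8 members in classes ordered along the granulocyte, erythroid and megakaryocyte paths, each line 1 gene. Stk3 and Nf2 are lowest in mature neutrophils (1.05 ± 0.325 and 2.14 ± 0.267 CPM), and Mob1b is highest in megakaryocytes (113 ± 12.9 CPM).

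Across the 19 class means, 4 pairs of members were most alike in pattern. Pearson's r of log2 levels was 0.81 for Lats2 with Mob1a, 0.80 for Lats1 with Mob1b, 0.78 for Stk4 with Vgll4 and 0.77 for Nf2 with Taok3. Between paralogs it was 0.05 for Stk3 with Stk4, 0.34 for Lats1 with Lats2 and 0.45 for Mob1a with Mob1b. These are descriptions: the class means come from the same 4 libraries and share their class totals.

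With the members left out, 6469 genes with at least 50 CPM in some class were ranked by the same correlation. The 3 closest were Avl9 (0.93), Rnf6 (0.92) and Kmt2d (0.92) for Stk4, Sh3bgrl (0.89), Nmt1 (0.89) and Smarcad1 (0.86) for Stk3 and Socs4 (0.93), Psmd4 (0.92) and Ndufs1 (0.91) for Sav1. For the LATS kinases they were Zfp638 (0.94), Ddx17 (0.94) and Rc3h1 (0.93) for Lats1 and Akna (0.90), N4bp2l1 (0.88) and Map3k8 (0.87) for Lats2. For the MOB1 genes they were Ep300 (0.94), Sft2d1 (0.94) and Dazap2 (0.94) for Mob1a and Dpf2 (0.87), Purb (0.86) and Erbin (0.86) for Mob1b. For the remaining members they were Snw1 (0.98), Ddx10 (0.98) and Otud4 (0.97) for Nf2, Septin6 (0.94), Cnot6l (0.93) and Ncoa2 (0.93) for Vgll4 and Tbc1d5 (0.88), Stx4a (0.86) and Kxd1 (0.86) for Taok3.

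No member differed between genotypes past the threshold over all cells. Levels in every library are drawn in the plot of all-cell levels; Mob1b, the member with the lowest unadjusted p, had 30.2 and 30.1 CPM in the YAP1 heterozygote libraries, against 34.1 and 31.2 CPM in the WT libraries. Its log2 fold change was -0.10 (SE 0.0842, unadjusted p = 0.299, edgeR adjusted p = 0.999). Stk3 had 11.4 and 11.4 CPM in YAP1 heterozygote and 12.5 and 12.1 CPM in WT, and Sav1 28.7 and 27.8 CPM in YAP1 heterozygote and 27.6 and 27.7 CPM in WT. Lats1 had 17.8 and 17.2 CPM in YAP1 heterozygote and 19.6 and 18.0 CPM in WT. Both YAP1 heterozygote libraries were below both WT libraries for Mob1b, Stk3 and Lats1 (3 of the 10 members, where 15% of all genes tested did so) and above them for Sav1 (1 of the 10, where 11.1% did so). The groups overlapped for the other 6, among them Lats2 (30.1 and 24.4 CPM in YAP1 heterozygote, 29.7 and 24.8 CPM in WT), Vgll4 (44.1 and 39.1 CPM in YAP1 heterozygote, 47.5 and 41.7 CPM in WT) and Nf2 (12.2 and 11.9 CPM in YAP1 heterozygote, 12.7 and 11.7 CPM in WT). Log2 fold changes of the 10 ran from -0.10 to 0.05, with a median of -0.04 against 0.01 over all genes tested. edgeR's quasi-likelihood test called 0 of the 10 and 0% of 15581 genes (Benjamini-Hochberg adjusted p under 0.05). At an unadjusted p under 0.05 there were 0 members and 419 genes, and DESeq2 called 0 members and 12 genes. Counts simulated at this depth gave a recovery of 64.4% for 2-fold changes and 10.98% for 1.5-fold changes. Across genes in general, smaller changes would therefore mostly be missed. These rates are for genes of every level together, and recovery at the levels of the 10 members was not tested. The simulated spread followed a trend over level, with none particular to a gene, and held no sex difference. Recovery in counts that hold these was not tested. In sums over all cells, fewer cells of a type and less RNA per cell cannot be told apart.

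Class by class the picture was the same. Of 190 pairs of a member and a class, 175 passed the filter on low counts, and edgeR called 0 of them, against 0.0204% of 171486 pairs of any gene and a class. Unadjusted p was under 0.05 in 5 of the 175 (2.86%), against 4.65% of all pairs, and DESeq2 called 0. The groups did not overlap in 14 pairs that were higher in YAP1 heterozygote and in 33 that were lower, where 15.3% and 16.8% of all pairs did so. Fold changes were below 0 in 105 pairs and above 0 in 70, a lower share of 60% against 49.4% of all pairs; the same libraries and related classes stand behind these pairs. By gene, Lats1 was below 0 in 14 of 17 classes (median -0.08), Mob1b in 12 of 17 (median -0.09) and Lats2 in 7 of 16 (median 0.03). The median over the 175 was -0.04, against 0.00 over all pairs. Whether a member's genotype difference varied between classes was tested as an interaction: edgeR called 0 of the 10, with unadjusted p from 0.270 to 0.934, against 0.248% of 12888 genes; 0 members and 641 genes had an unadjusted p under 0.05.

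The 5 pairs with a low unadjusted p, singled out after their values were seen, lay in 3 classes. In plasmacytoid dendritic cells, the interferon-producing cells of the marrow, Vgll4 had 66.3 and 61.0 CPM in the YAP1 heterozygote libraries, against 90.8 and 88.1 CPM in the WT libraries. Its log2 fold change was -0.48 (SE 0.140, unadjusted p = 0.00485, edgeR adjusted p = 0.429), the lowest p among the pairs. Lats2 in the same cells had 36.4 and 24.0 CPM in YAP1 heterozygote and 45.6 and 38.7 CPM in WT (log2 fold change -0.49, SE 0.209, edgeR adjusted p = 0.793). T cells had 126 and 122 CPM of Vgll4 in YAP1 heterozygote and 176 and 148 CPM in WT (log2 fold change -0.37, edgeR adjusted p = 0.848). In erythroid progenitors, Lats2 had 6.91 and 10.3 CPM in YAP1 heterozygote and 3.47 and 5.81 CPM in WT (edgeR adjusted p = 0.917), and Sav1 68.3 and 66.0 CPM in YAP1 heterozygote and 59.5 and 54.6 CPM in WT (edgeR adjusted p = 0.919). In all 5 the groups did not overlap, and none passed the threshold after adjustment over the genes of its class. With the replicate number, which coincides with sex, as a block in the fit, Vgll4 in plasmacytoid dendritic cells did pass it, at an edgeR adjusted p of 0.0493.

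For the other members the class with the lowest p gave less. Stk3 in B cell precursors had 36.7 and 38.8 CPM in YAP1 heterozygote and 47.0 and 46.2 CPM in WT (log2 fold change -0.30, edgeR adjusted p = 0.921), the largest class difference of that gene. Mob1b in immature neutrophils had 19.1 and 20.4 CPM in YAP1 heterozygote and 23.8 and 23.3 CPM in WT (edgeR adjusted p = 0.912). Mob1a in the same cells had 148 and 134 CPM in YAP1 heterozygote and 167 and 141 CPM in WT (edgeR adjusted p = 0.975). Leaving out the Cxcl2-led cluster of WT replicate 1 moved these log2 fold changes to -0.21 for Mob1b and -0.08 for Mob1a, against -0.22 and -0.10 with it. Lats1 and Nf2 had theirs in plasmacytoid dendritic cells, with log2 fold changes of 0.35 and -0.33 (edgeR adjusted p = 0.934 and 0.947). Taok3 in HSPC stood at -0.15 and Stk4 in basophils or mast cells at -0.21 (edgeR adjusted p = 0.9998 and 0.923). In megakaryocytes, the class of interest to a study of platelet formation, Mob1b had a log2 fold change of -0.20 (SE 0.150) and Lats1 of 0.03 (SE 0.196), with edgeR adjusted p = 1 and 1.

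**Figure D5:**
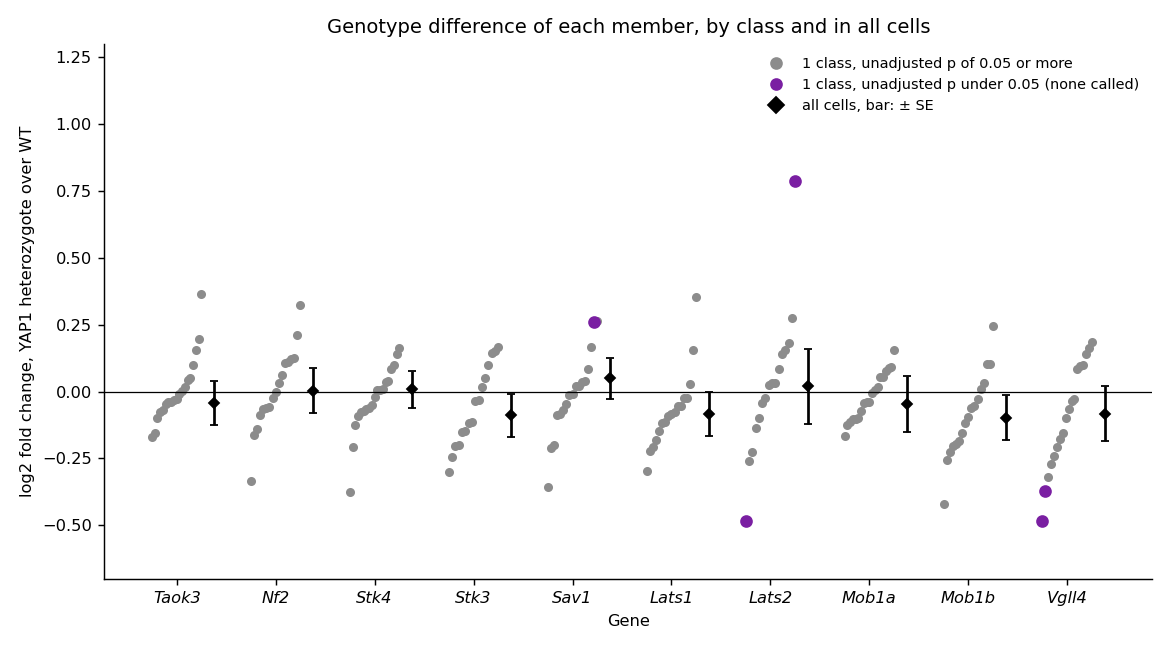
Log2 fold change of YAP1 heterozygote over WT for each member in each class tested (grey points, purple where the unadjusted p was under 0.05) and in all cells (black diamonds, bars ± SE). The all-cell values run from -0.10 to 0.05, and 0 of the 175 class values passed the adjusted threshold.

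The rest of the pathway was read from 5 lists and no gene of them was called in any class or over all cells, in either direction. Of 22 upstream kinases and activators 20 were tested over all cells; the most abundant were Rassf3 (89.4 CPM) and Rassf5 (79.6 CPM), of the RASSF family that binds the Hippo kinases, and Map4k4 (69.8 CPM), a kinase that acts on LATS beside them. Of 12 inhibitors of the kinases all 12 were tested, led by Ppp2ca (166 CPM), the catalytic subunit of phosphatase PP2A, with Pdcd10 (105 CPM) and the LIM protein Limd1 (54.3 CPM). All 10 NDR kinases, related kinases and other MOB proteins were tested, led by Stk38 (114 CPM), an NDR kinase that MOB1 binds, then Stk24 (95.05 CPM) and Mob4 (69.0 CPM). On plain totals Stk38 was highest in nonclassical monocytes (387 ± 67.9 CPM), the class in which Mob1a was also highest. With TMM-scaled totals Mob1a led in mature neutrophils, and no level on that scale is given for Stk38. Unadjusted p was under 0.05 in 10 of 271 pairs of an upstream gene and a class, 1 of 184 for the inhibitors and 9 of 171 for the NDR list, with median log2 fold changes of 0.00, -0.01 and -0.03. Of the effectors 2 pairs were tested, both of Tead2 and with fold changes above 0, and 1 had an unadjusted p under 0.05. This was Tead2 in mature neutrophils, with 26 UMIs in YAP1 heterozygote and 9 in WT cells (log2 fold change 1.44, unadjusted p = 0.0256, edgeR adjusted p = 0.828).

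Of 19 YAP and TEAD target genes 16 were tested over all cells, although their coactivators were nearly absent. The most abundant were Asap1 (98.9 CPM), Gadd45b (50.1 CPM) and Nuak2 (15.8 CPM). Gadd45b, a stress-response gene with many regulators, had 41.6 and 39.6 CPM in the YAP1 heterozygote libraries, against 74.8 and 44.6 CPM in the WT libraries. WT replicate 1, which also holds nearly all of the Cxcl2-led neutrophil cluster, was the high one. Its log2 fold change was -0.54 (SE 0.241, edgeR adjusted p = 0.999). In 18 classes tested its fold change was below 0 in 17, with a median of -0.66 and a lowest edgeR adjusted p of 0.181. Without the filter on low counts edgeR called it in 7 classes, lower in YAP1 heterozygote in each. Of the 13 pairs of a target gene and a class with an unadjusted p under 0.05, 10 were Gadd45b, out of 88 pairs tested with a median log2 fold change of -0.11. Asap1 had 105 and 96.0 CPM in YAP1 heterozygote and 94.7 and 99.7 CPM in WT, and Nuak2 18.0 and 14.9 CPM in YAP1 heterozygote and 17.1 and 13.4 CPM in WT.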

How the data were processed

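For each library the authors deposited raw UMI counts per gene and cell barcode, with no normalization. Versions of the counting tool disagree: 5.0.0 of Cell Ranger per the file headers, but 3.0.0 per the submitters' processing notes, which add Seurat 4.3.0 and the builds GRCm38 and mm10. Gene positions are from GENCODE (GRCm38).

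Barcodes under 500 UMIs, under 200 genes or over 10% mitochondrial UMIs were dropped, and doublets called by Scrublet (3.383% to 4.403% per library) were removed in scanpy 1.11.5. Leiden clusters (resolution 1, 30 principal components, 15 neighbours) were named from marker lists. Sums of UMIs over the cells of a class in a library were tested in classes with at least 20 cells in every library with edgeR 4.0.16 (filterByExpr, TMM, quasi-likelihood test, Benjamini-Hochberg over all genes of a class, threshold 0.05). The interaction model held library, class and class by genotype. DESeq2 1.42.0 was run as an alternative. Fold changes are YAP1 heterozygote over WT. Tests were checked on simulated counts. No library repeats another: between any pair at most 1.38% of gene counts were equal.

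The members, marker and pathway lists were chosen with earlier results of these data known. Named were all members, each with its class of lowest p, Yap1, Wwtr1, the TEADs, the 3 most abundant genes of each pathway list and, per member, the 3 genes closest in pattern among those with at least 50 CPM in some class. Shares carry exact Clopper-Pearson 95% intervals and levels of the smallest class exact Poisson ones; a count of 0 allows up to 3 counts. Both cover counting error only.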

Additional observations from a re-analysis of the deposited data

How the results depend on the processing

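The count of members called was 0 over all cells, in the classes and in the interaction under all alternatives run, with 1 exception. With the replicate number as a block, 1 pair was called: Vgll4 in plasmacytoid dendritic cells, at an edgeR adjusted p of 0.0493 (0.429 without the block, 0.122 to 0.9997 under the others) and a log2 fold change of -0.48. Samples of the same number deviated together (correlation 0.685 over 7636 genes), and in both genotypes replicate 1 held the Y-linked Ddx3y and replicate 2 Xist, so number and sex cannot be told apart in this block; no label states a pairing. The block changed no other call among the members. The count of pathway gene and class pairs called was 0 in the report, 7 with no filter on low counts (all Gadd45b), 5 with the replicate block (4 Gadd45b, 1 Rassf2), and 1 to 10 when 1 library was left out. Without WT replicate 2 it was 10 (6 of them Gadd45b); without WT replicate 1 it was 1 (Frmd6), without YAP1 heterozygote replicate 1 it was 1 (Gadd45b) and without YAP1 heterozygote replicate 2 it was 1 (Map4k4). A setting that leaves 1 library in a group assumes that it varies like the others. The cause of these shifts was not tested.

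All-cell log2 fold changes of 6 members changed sign under some settings, all of them small. Stk4 stood at -0.0101 on plain library totals and ran from -0.063 to 0.0624 with 1 library left out. Nf2 stood at -0.00481 with DESeq2 and -0.0151 on plain totals and ran from -0.0647 to 0.0537. With 1 library left out Lats2 ran from -0.13 to 0.15, Mob1a from -0.19 to 0.0888, Vgll4 from -0.187 to 0.0084 and Taok3 from -0.119 to 0.0213. The share differences ran from 0.4 to 0.822 percentage points for Stk4, from -3.71 to 0.373 for Lats1 and from -0.167 to 1.4 for Mob1a. In the class that led on plain totals, TMM-scaled totals lowered the level of 9 of 10 members by more than the spread between libraries. With doublets kept, NK cells or innate lymphoid cells led for Lats1 (30.6 CPM) and macrophages for Mob1a (241 CPM).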
